A study of Mus musculus with 12 samples.

Results

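Ttr, Kl, Folr1, Clic6, Aqp1, Kcne2, Otx2, Prlr, Sostdc1 and Calml4 are genes that mark the epithelium of the choroid plexus, and here they were followed through every library of a mouse hippocampus study. The 10 markers were taken by symbol from a table of 54427 genes and read library by library, as a sign of tissue carried along when the hippocampus was dissected. The study holds 12 RNA-seq libraries, 3 in each of 4 groups: 5xFAD;Ulk1OV, 5xFAD, Ulk1OV and WT mice. 5xFAD mice carry human transgenes driven by the neuronal Thy1 promoter, and are a model of Alzheimer amyloid pathology. Ulk1OV is read here as overexpression of Ulk1, a kinase that starts autophagy, which the labels do not spell out, and 5xFAD;Ulk1OV mice carry both. Age, sex, the Ulk1 construct and its promoter are not given in the labels, which call the tissue hippocampal and also name primary cells. Nothing says that the 3 libraries of a group came from separate animals, so p-values rest on how far these libraries differ from each other, which may be technical variation.

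The choroid plexus is a fold of vascular tissue that hangs into the brain ventricles and is covered by a sheet of secretory epithelial cells. These cells make most of the cerebrospinal fluid by moving ions and water, carry vitamins and hormones from blood to brain, and release transthyretin, the product of Ttr, in very large amounts. The plexus of the lateral ventricle lies against the fimbria, beside the hippocampus, without being part of it. In bulk tissue a lower level can come from fewer cells of a type or from less RNA per cell, and these cannot be told apart.

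Totals ran from 16149992 to 18547132 counts per library. The 14 markers of hippocampal neurons, among them Neurod6, Zbtb20 and Wfs1, had counts in all 12 libraries and summed to 767 to 1081 CPM, the counts of a gene per 1000000 counts of its library. Ulk1 lay between 83.7 and 101 CPM in the 6 libraries with a Ulk1OV label and between 63.2 and 82.9 CPM in the other 6. App and Prnp, mouse genes with more counts in most libraries with a 5xFAD label, contradicted 1 label. Whether the added counts came from the mouse genes or from reads of a transgene was not tested. In the library labelled 5xFAD;Ulk1OV replicate 3 App stood at 1320 CPM, below the 2258 to 2631 CPM of the other 5 libraries with a 5xFAD label and inside the 1192 to 1503 CPM of the 6 with none. Prnp stood at 961 CPM in it, at 2120 to 2411 CPM in those 5 and at 919 to 1130 CPM in the 6 with none. For comparisons that contain this library, the median fold change of the markers and their edgeR calls are also given without it. The average of Ttr and the ranking of genes by likeness are given both ways too. Fold changes of single genes are given without this library only in part, and DESeq2 counts are not.

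Promoter sequence was looked up for the markers. RefSeq promoter windows (GRCm38.p6, the 250 bases before a start) were found for 6 of the 10 markers, namely Kl, Aqp1, Calml4, Otx2, Prlr and Kcne2, with 12 windows in all because some genes have several starts. Each was searched on both strands for TAATCC, the core letters bound by OTX2, a homeobox factor of choroid plexus epithelium whose own gene is among the markers. Of the 12 windows 1 held these letters, an Otx2 window, against 6.25% of 32851 windows of the same length across the mouse genome. The windows below belong to Kcne2, which stood far above its median in the same libraries as Ttr, to Calml4, which differed least from its median there, and to the Otx2 start with the match. They lie at chr16:92292139-92292388 (plus strand), chr9:62857854-62858103 (plus strand) and chr14:48665110-48665359 (minus strand), are written 5′ to 3′ on the strand of the gene, and carry the match, read on the opposite strand, in capitals.
Kcne2: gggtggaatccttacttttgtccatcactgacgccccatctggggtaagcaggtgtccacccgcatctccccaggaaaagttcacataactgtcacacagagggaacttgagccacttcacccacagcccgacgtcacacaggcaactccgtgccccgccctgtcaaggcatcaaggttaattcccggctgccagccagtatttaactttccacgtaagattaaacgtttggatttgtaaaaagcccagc
Calml4: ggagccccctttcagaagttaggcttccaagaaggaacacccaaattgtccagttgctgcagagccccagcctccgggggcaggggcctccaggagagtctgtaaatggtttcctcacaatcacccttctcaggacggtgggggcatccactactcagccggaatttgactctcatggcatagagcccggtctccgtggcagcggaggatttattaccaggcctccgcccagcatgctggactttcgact
Otx2: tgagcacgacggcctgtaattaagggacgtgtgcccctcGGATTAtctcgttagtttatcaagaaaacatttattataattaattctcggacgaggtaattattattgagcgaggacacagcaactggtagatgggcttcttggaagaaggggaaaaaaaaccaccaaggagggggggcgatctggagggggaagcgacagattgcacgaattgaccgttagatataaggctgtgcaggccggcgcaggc
Such a match describes letters and not a bound site.

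The markers were very uneven between libraries, within groups as well as between them. Summed over the 10 genes, 5xFAD;Ulk1OV libraries had 61.3, 360.0 and 220 CPM, 5xFAD libraries 28.6, 142 and 169, Ulk1OV libraries 4267, 213 and 65.3, and WT libraries 55.7, 103 and 6489. Ulk1OV replicate 1 and WT replicate 3 stood apart: the markers took 0.427% and 0.649% of their counts, and 0.00286% to 0.0360% in the other 10 libraries. Between the highest library and the lowest, 5xFAD replicate 1, the sum differed 227-fold.

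Transthyretin, the carrier of thyroid hormone and retinol-binding protein, made up most of that difference. Ttr (chromosome 18, 20665280 to 20674321, plus strand; GRCm38, GENCODE M21, as for all positions here) had 26.4, 292 and 157 CPM in 5xFAD;Ulk1OV, 4.89, 92.3 and 121 in 5xFAD, 3963, 167 and 12.2 in Ulk1OV mice, and 25.1, 65.3 and 6076 in WT. All 4 groups overlapped. The group averages were 159 ± 133, 72.6 ± 60.4, 1381 ± 2238 and 2055 ± 3482 CPM in the same order of groups (SD, n = 3 each), so in Ulk1OV and WT the SD was larger than the mean. Without 5xFAD;Ulk1OV replicate 3 the 5xFAD;Ulk1OV average was 159 ± 188 CPM (SD, n = 2). Per kilobase of exon Ttr had a median level of 89.8 CPM over the 12 libraries, and the next of the markers, Sostdc1, had 2.41 CPM per kilobase.

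**Figure D1:**
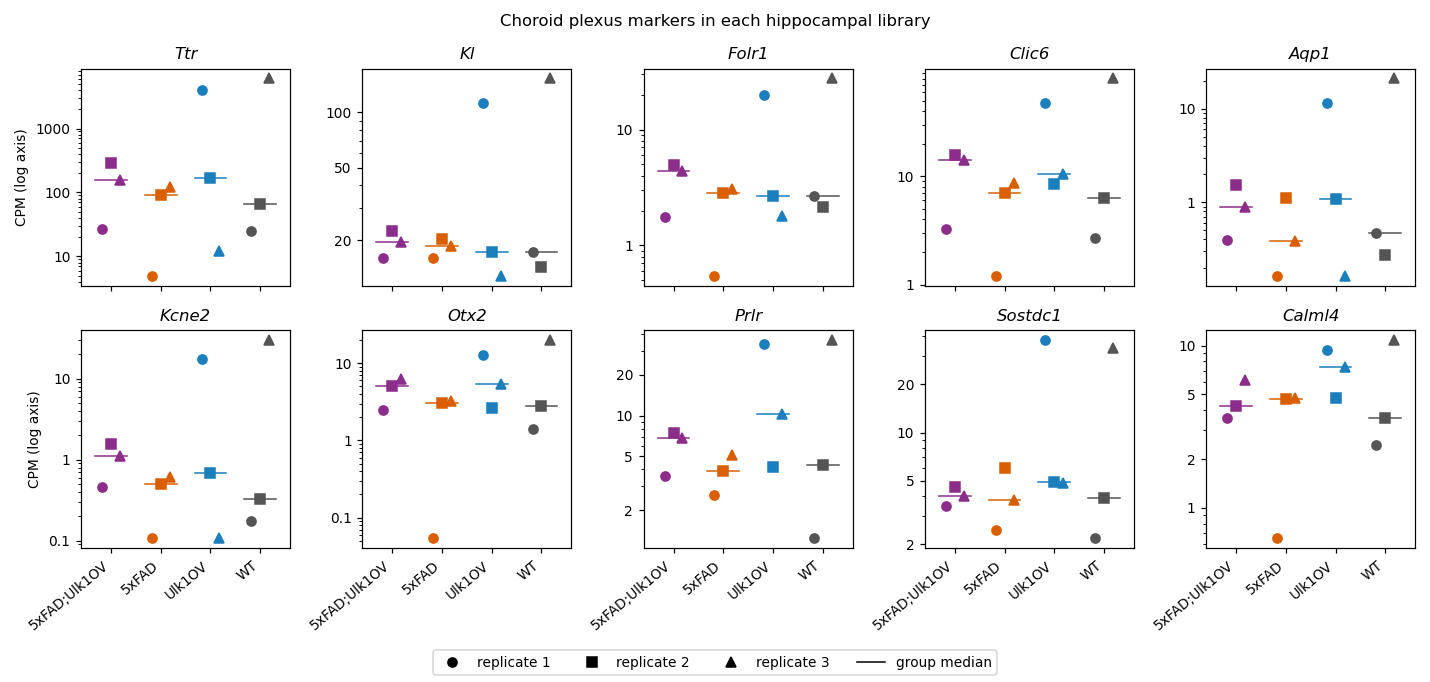
Level of each of the 10 choroid plexus markers in every library, in CPM on a log axis, by group, with the replicate number as the symbol and the group median as a line. Ulk1OV replicate 1 and WT replicate 3 lie at the top of all 10 panels, with Ttr at 3963 and 6076 CPM.

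Of the genes of ion and water transport, Kcne2 stood nearly as far above its median in the high pair as Ttr, Aqp1 less far and Clic6 least far. Kcne2, a potassium channel subunit of the apical membrane (chromosome 16, 92292389 to 92298129), had 0.455, 1.59 and 1.12 CPM in 5xFAD;Ulk1OV, 0.109, 0.503 and 0.609 in 5xFAD, 17.8, 0.680 and 0.108 in Ulk1OV mice, and 0.177, 0.330 and 29.8 in WT. Ulk1OV replicate 1 was thus 31.97 times the median of the 12 libraries and WT replicate 3 was 53.7 times it, close to the 37.2 and 57.0 times of Ttr. Aqp1, the apical water channel (chromosome 6, 55336432 to 55348555), reached 16.8 and 30.8 times its median in those libraries. Outside them, Kcne2 rested on 2 to 29 counts and Aqp1 on 3 to 28 counts per library, so their order there is poorly measured. Clic6 (chromosome 16, 92485736 to 92541243), of the chloride intracellular channel family, had 48.0 CPM in Ulk1OV replicate 1 and 80.6 CPM in WT replicate 3, and 1.19 to 15.8 CPM elsewhere.

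Receptor genes stood less far above their medians in these libraries than Ttr, Kcne2 and Aqp1 did. Folr1 (chromosome 7, 101858331 to 101870788, minus strand) encodes the folate receptor that carries folate into cerebrospinal fluid. Its level was 19.8 CPM in Ulk1OV replicate 1 and 27.6 CPM in WT replicate 3, and 0.543 to 4.92 CPM in the other libraries. Kl, the klotho co-receptor for FGF23 (chromosome 5, 150952607 to 150993817), had 16.0, 22.4 and 19.5 CPM in 5xFAD;Ulk1OV, 15.9, 20.3 and 18.7 in 5xFAD, 113, 17.2 and 12.7 in Ulk1OV mice, and 17.3, 14.4 and 153 in WT. Apart from the same pair of libraries Kl hardly moved, with a 1.76-fold range where Ttr had a 59.8-fold range. Klotho is also made by hippocampal neurons. The prolactin receptor gene Prlr (chromosome 15, 10177238 to 10349180) had 3.58, 7.49 and 6.84 CPM in 5xFAD;Ulk1OV, 2.61, 3.91 and 5.15 in 5xFAD, 33.8, 4.19 and 10.3 in Ulk1OV mice, and 1.24, 4.29 and 36.1 in WT. Both high libraries were nearly level in Prlr, and Ulk1OV replicate 3 came next.

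The transcription factor gene Otx2 (chromosome 14, 48657677 to 48673819, minus strand) had 2.44, 5.08 and 6.28 CPM in 5xFAD;Ulk1OV, 0.0543, 3.02 and 3.21 in 5xFAD, 12.7, 2.66 and 5.34 in Ulk1OV mice, and 1.42, 2.81 and 19.8 in WT. The value of 0.0543 CPM was 1 count, in 5xFAD replicate 1, and without the high pair Otx2 had the widest range of the 10 markers, 116-fold. Sostdc1, a secreted antagonist of BMP and Wnt signals (chromosome 12, 36314139 to 36318452), had 3.47, 4.59 and 3.98 CPM in 5xFAD;Ulk1OV, 2.44, 5.98 and 3.77 in 5xFAD, 37.7, 4.93 and 4.85 in Ulk1OV mice, and 2.19, 3.91 and 34.0 in WT. It was the one marker with its highest level in Ulk1OV replicate 1. The level in WT replicate 3 divided by that in Ulk1OV replicate 1 was 0.902 for Sostdc1, 1.53 for Ttr and 1.83 for Aqp1, the lowest and the highest of the markers being Sostdc1 and Aqp1. Calml4, a calmodulin-like protein of brush borders (chromosome 9, 62858080 to 62875921), had 3.58, 4.26 and 6.17 CPM in 5xFAD;Ulk1OV, 0.652, 4.69 and 4.76 in 5xFAD, 9.41, 4.76 and 7.39 in Ulk1OV mice, and 2.42, 3.58 and 10.8 in WT. At 1.99 times its median in Ulk1OV replicate 1 and 2.28 times in WT replicate 3, it stood least above it in the high pair. Strand use in counting is not given, and exons of Otx2 share 154 bases with the antisense Otx2os1 and 168 with Gm49154, and those of Prlr share 203 with Gm21973, so a small part of these counts is uncertain.

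**Figure D2:**
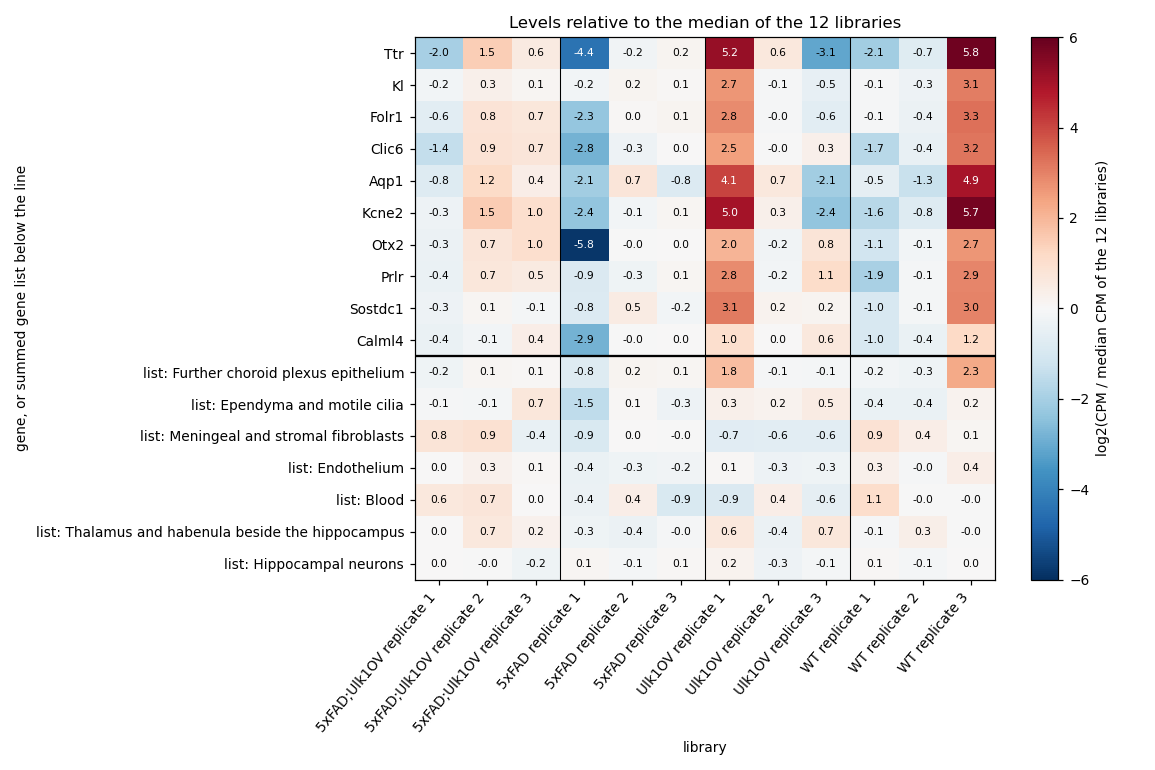
Log2 of the CPM in each library over the median of the 12 libraries, for each marker (above the line) and for 7 summed lists of other cell and tissue markers (below it), with positive values in red. Ttr reaches 5.2 in Ulk1OV replicate 1 and 5.8 in WT replicate 3, and the further choroid plexus list 1.8 and 2.3, while the hippocampal neuron row stays near 0.

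Ulk1OV replicate 1 and WT replicate 3 were the top 2 libraries for 10 of 10 markers, and for 387 of the 17227 genes tested, or 2.25%. This pair was picked on its marker levels, so the count is a description. A further list held 36 gene symbols of choroid plexus epithelium, of which 35 were in the table. The same pair was on top in 26 of them, and 34 had their highest level in WT replicate 3. Its most abundant member, Enpp2, which encodes autotaxin, had 1659 CPM in Ulk1OV replicate 1, 2194 CPM in WT replicate 3 and at most 391 CPM elsewhere. Igf2, also on that list, did not follow: it had 0.495 CPM in Ulk1OV replicate 1 and 2.37 CPM in WT replicate 3 and up to 5.62 CPM in another library.

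Markers of neighbouring tissue did not share this order, except for a few genes. The top 2 libraries were this pair in 2 of 18 genes of ependyma and motile cilia (Dynlrb2 and Cfap126), 0 of 16 of meningeal and stromal fibroblasts, 1 of 12 of endothelium (Slco1c1), 0 of 5 of blood, 1 of 17 of thalamus and habenula (Irx2) and 0 of 14 of hippocampal neurons. Summed ependymal genes had 218 CPM in Ulk1OV replicate 1 and 202 CPM in WT replicate 3, inside the range of the other libraries (60.8 to 281 CPM). The fibroblast sum was 191 CPM in Ulk1OV replicate 1 and 338 CPM in WT replicate 3, against 166 to 575 CPM elsewhere. Endothelial genes summed to 147 CPM in Ulk1OV replicate 1 and to 183 CPM in WT replicate 3, the highest of 12, against 104 to 168 CPM in the rest. Slco1c1 alone gave 64.2 and 70.0 CPM of those sums in the high pair, and at most 47.5 CPM in any other library.

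The markers did not keep constant proportions. Ttr counts were 43.0%, 81.2% and 71.3% of all marker counts in 5xFAD;Ulk1OV, 17.1%, 65.1% and 71.4% in 5xFAD, 92.9%, 78.1% and 18.6% in Ulk1OV mice, and 45.1%, 63.2% and 93.6% in WT. The widest exact 95% binomial interval, in 5xFAD replicate 1 with 526 marker counts, ran from 14.0% to 20.6%, and it covers counting error only. The share was highest in the 2 libraries with the most Ttr and lowest in the 2 with the least, and the other 9 markers together spanned 23.7 to 413 CPM.

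**Figure D3:**
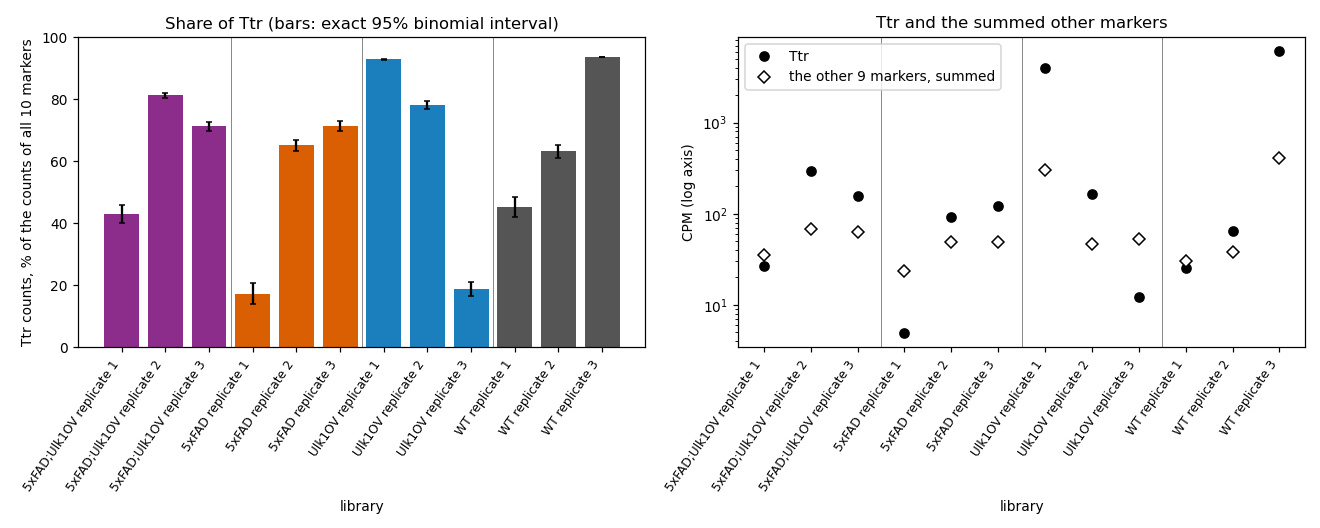
Left, Ttr counts as a percentage of the counts of all 10 markers in each library, with exact 95% binomial intervals; right, CPM of Ttr and of the other 9 markers summed, on a log axis. The Ttr share is 92.9% in Ulk1OV replicate 1 and 93.6% in WT replicate 3, and 17.1% in 5xFAD replicate 1 and 18.6% in Ulk1OV replicate 3.

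Kcne2 stayed closest to Ttr. Kcne2 had 4.48 counts per 1000 Ttr counts in Ulk1OV replicate 1 (exact 95% interval 3.98 to 5.04) and 4.91 in WT replicate 3 (4.49 to 5.35), although Ttr itself differed widely from most other libraries. In the other 10 libraries it had 4.08 to 22.2 per 1000, and the interval excluded the 4.91 of WT replicate 3 in 1 of them, 5xFAD;Ulk1OV replicate 1 (7.40 to 34.3). Those libraries held only 2 to 29 Kcne2 counts, and the interval in 5xFAD replicate 1 ran from 2.65 to 82.6. Such wide intervals cannot show that the proportion was constant. Calml4 was the opposite case, with 2.37 counts per 1000 Ttr counts in Ulk1OV replicate 1, 606 in Ulk1OV replicate 3 (487 to 753) and 1.77 in WT replicate 3.

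Ulk1OV replicate 3 and 5xFAD replicate 1 both held little Ttr, but in different company. They were alike in Aqp1 and Kcne2, with 3 and 2 counts in each library, the lowest of the 12. Ulk1OV replicate 3 had the lowest Kl and the second lowest Ttr. Its Prlr and Calml4 were nevertheless the third highest of 12, and its Otx2 the fourth. In 5xFAD replicate 1 Ttr, Folr1, Clic6, Otx2 and Calml4 were all at their lowest, at 4.89, 0.543, 1.19, 0.0543 and 0.652 CPM. Beside these values stood other lists: ependymal genes summed to 60.8 CPM in 5xFAD replicate 1, with 15 of 18 at their lowest there, and to 249.5 CPM in Ulk1OV replicate 3, the second highest sum. Among the 17 thalamus and habenula genes, which summed highest in Ulk1OV replicate 3 (299 CPM), Zic1 had 10.4 CPM in 5xFAD replicate 1, its lowest, and 114 CPM in Ulk1OV replicate 3. Other genes of that list went the other way. Rora had 51.8 CPM in 5xFAD replicate 1 and 41.9 CPM in Ulk1OV replicate 3, and Nwd2 had 35.2 and 19.9 CPM. The part of these lists in the marker levels was not tested.

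**Figure D4:**
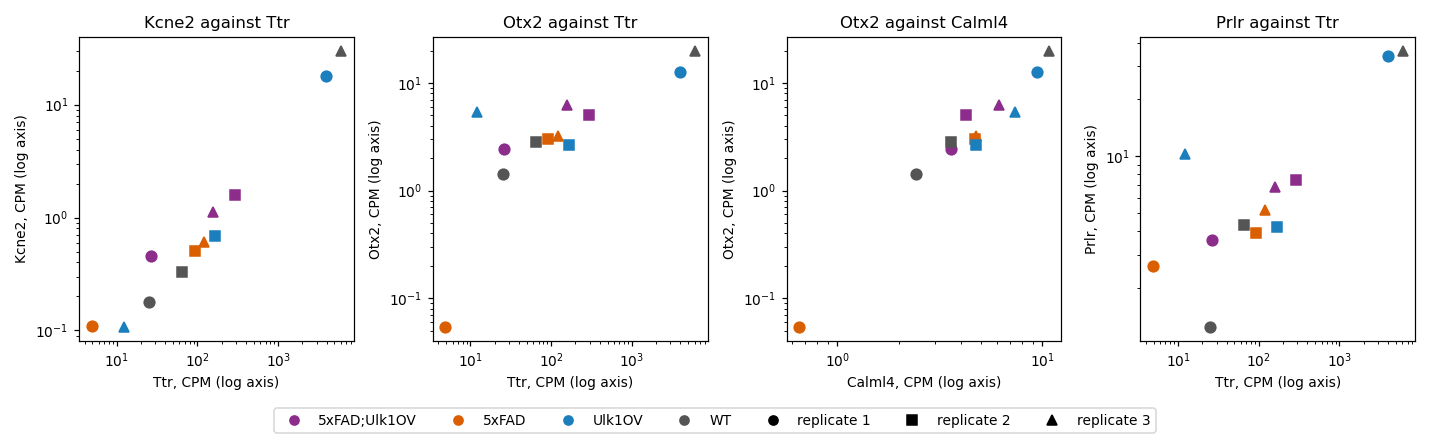
CPM of pairs of markers in the 12 libraries, on log axes, coloured by group and with the replicate number as the symbol. Kcne2 follows Ttr through nearly all libraries, while Ulk1OV replicate 3 lies apart for Otx2 and Prlr against Ttr (12.2 CPM of Ttr, 5.34 of Otx2 and 10.3 of Prlr).

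Genes with a pattern most like the markers were ranked by Pearson's r between log2(CPM + 0.5) of each tested gene and the median over the 10 markers across the 12 libraries. The 12 most alike were Fam161a (r = 0.97), Steap1 (0.96), Sgms2, Sulf1, Cldn2, Cfap52, Krt18, Lbp, Krt8, Steap2, F5 and Enpp2 (0.93), and 8 of them were on the further choroid plexus list. F5, coagulation factor V, had 49.3 CPM in Ulk1OV replicate 1 and 55.7 CPM in WT replicate 3, and less in each of the other libraries. Without the high pair none of these 12 stayed among the most alike, and 0 genes were shared. Over 10 libraries the list was led by Meltf (r = 0.97). It held Pifo and Tmem212, the 2 of its 12 genes on the ependymal list, beside others such as Slc32a1, Elof1 and Nap1l5. Every gene on this second list had its lowest level in 5xFAD replicate 1, and no ranking was made without that library. Without 5xFAD;Ulk1OV replicate 3, 10 of the 12 genes ranked over all 12 libraries stayed. All 12 points share their library and depth with the markers, so r is a description.

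Comparing 5xFAD with WT asks for the effect of the 5xFAD genotype in mice without Ulk1OV. All 10 markers had lower fitted levels in 5xFAD than in WT, but none passed the test and the direction rested on WT replicate 3. Ttr had a log2 fold change of -4.79 ± 2.08 (SE; edgeR quasi-likelihood test, Benjamini-Hochberg adjusted p = 0.369), Kcne2 -4.57 ± 1.81 (adjusted p = 0.331) and Aqp1 -3.65 ± 1.54 (adjusted p = 0.354). Clic6, Folr1, Otx2, Prlr, Kl and Sostdc1 lay between -2.37 and -1.68, and Calml4 at -0.70 ± 0.59. The median over the markers was -2.10, where all genes tested had a median of 0.00. edgeR called 0 of 10 markers (adjusted p under 0.05), as it called 0% of the 17227 genes; 5 markers had an unadjusted p under 0.05, against 12.4% of all genes. DESeq2 gave an adjusted p for 6 of the markers and called 0 of them, against 0.44% of all 31620 genes in its fit, and gave none for Ttr, Kl, Folr1 and Kcne2, which its rule for outlying counts set aside. In no marker were the 3 values of 5xFAD all below or all above those of WT, which held for 12% (below) and 6.56% (above) of all genes.

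Leaving out WT replicate 3 turned the direction of 8 of 10 markers. Ttr then stood at 0.70, Kcne2 at 0.68, Aqp1 at 0.59, Prlr at 0.51, Sostdc1 at 0.43, Clic6 at 0.33, Kl at 0.24 and Calml4 at 0.18, while Otx2 was at -0.00 and Folr1 at -0.14. The median became 0.38. On the further choroid plexus list edgeR called 0 of 35 genes as higher and 0 as lower, 34 lay below 0 and the median was -1.26. Without the high pair the median was -0.21 over 34 genes. DESeq2 gave a p for 29 genes of this list and called 1 as lower, against 0.307% of all genes. By edgeR the members of the list with the smallest p were Col8a2 (-1.78 ± 0.41), Wfdc2 (-4.04 ± 1.36), 1500015O10Rik (-2.80 ± 0.95) and Steap1 (-3.64 ± 1.28).

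**Figure D5:**
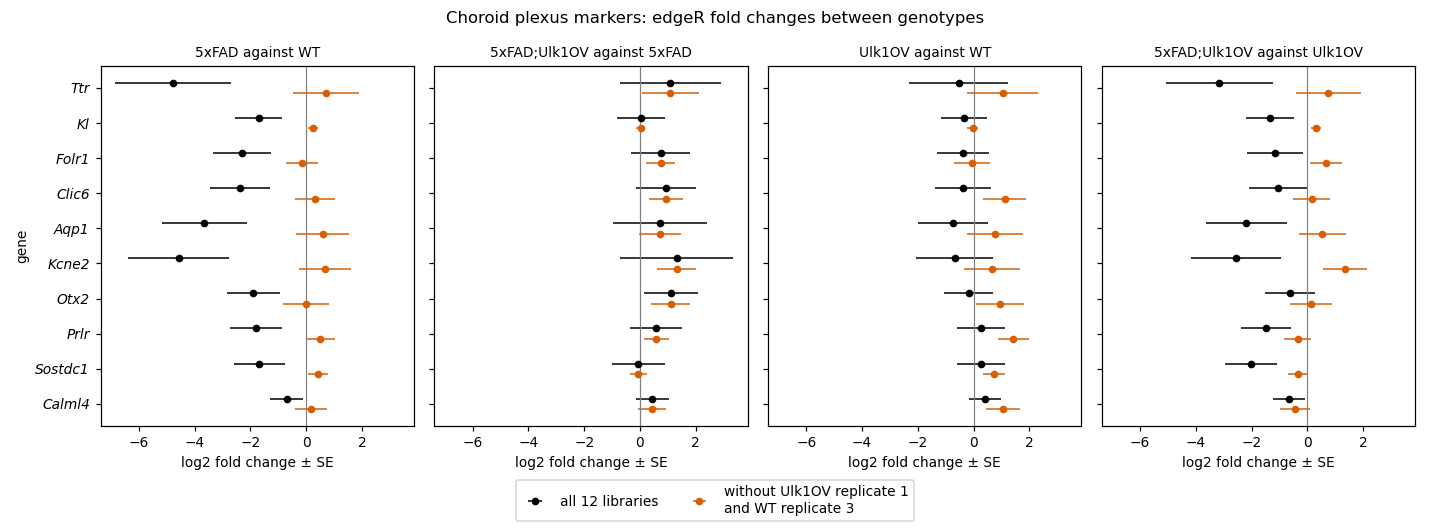
Fitted log2 fold change of each marker with its SE (edgeR) in the 4 comparisons, over all 12 libraries (black) and without Ulk1OV replicate 1 and WT replicate 3 (orange). In 5xFAD against WT, Ttr moves to 0.70 from -4.79 once both libraries are left out, and the SE of every marker is shorter.

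The comparison of 5xFAD;Ulk1OV with 5xFAD, which asks what Ulk1 overexpression adds on the 5xFAD background, uses neither high library. Of the 10 markers 9 had higher fitted levels, with a median of 0.74, yet edgeR called 0 markers, against 0.0464% of all genes, and 0 had an unadjusted p under 0.05 (17.4% of all genes). DESeq2 called 0 of the 6 it gave a p, against 2.28% of all genes. Ttr differed by 1.10 ± 1.81 (SE), Kcne2 by 1.33 ± 2.03, Otx2 by 1.11 ± 0.96 and Sostdc1 by -0.05 ± 0.96. The high pair enters here only through the spread shared by the 4 groups, and without it the SE was 1.03 for Ttr and 0.31 for Sostdc1. Leaving out both high libraries, edgeR again called 0 markers, against 0.183% of all genes. With the contradictory 5xFAD;Ulk1OV replicate 3 left out, the median was 0.67, Ttr stood at 1.11, Kcne2 at 1.29, Otx2 at 0.83 and Sostdc1 at -0.04, and edgeR called 0 markers and 0.0682% of all genes. The median was 0.35, with 7 of 10 markers above 0, without 5xFAD replicate 1, 0.44 without 5xFAD;Ulk1OV replicate 2, and 1.08 without 5xFAD;Ulk1OV replicate 1. All markers overlapped between the groups, while 13.9% of all genes lay wholly higher in 5xFAD;Ulk1OV and 7.79% wholly lower.

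For Ulk1OV against WT each group held one of the high libraries. Ttr differed by -0.53 ± 1.77 (SE), Kcne2 by -0.68 ± 1.39, Otx2 by -0.17 ± 0.88 and Sostdc1 by 0.28 ± 0.86, and the median over the markers was -0.36. By edgeR 0 markers were called, against 5.17% of all genes, 0 had an unadjusted p under 0.05 (24.1% of all genes), and DESeq2 called 0 of 6, against 5.75% of all genes. Which high library was kept decided the sign: Ttr stood at 4.96 without WT replicate 3, at -4.44 without Ulk1OV replicate 1 and at 1.05 without both, a fit in which edgeR called 0 markers and 0.331% of all genes. All markers overlapped between Ulk1OV and WT, while 11.2% of all genes lay wholly higher in Ulk1OV and 18.8% wholly lower. On the further list 2 of 35 genes fell, Igf2 and Slc13a4, named after their values were seen and both known from meningeal fibroblasts as well. Igf2 had a log2 fold change of -2.43 ± 0.57 (SE; edgeR adjusted p = 0.0350), and Slc13a4 an adjusted p of 0.0499; without the high pair 0 of 34 fell. Of the fibroblast list 8 of 16 genes fell in the same comparison, and 1 of 16 without the high pair. Of all genes 3.04% fell, and 0.194% without the high pair.

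In 5xFAD;Ulk1OV against Ulk1OV all 10 markers had lower fitted levels, with a median of -1.40, and the direction of the median rested on Ulk1OV replicate 1. edgeR called 0 markers, against 6.1% of all genes, and DESeq2 called 0 of 6, against 6.3% of all genes. Ttr differed by -3.16 ± 1.92 (SE), Kcne2 by -2.57 ± 1.61 and Otx2 by -0.62 ± 0.90. Sostdc1 was the one marker without overlap, at 3.47, 4.59 and 3.98 CPM in 5xFAD;Ulk1OV and 37.7, 4.93 and 4.85 CPM in Ulk1OV, a separation that 9.18% of all genes had in that direction and 18.2% in the other. Its log2 fold change was -2.01 ± 0.93 (edgeR adjusted p = 0.198), it was the one marker with an unadjusted p under 0.05 (24.8% of all genes), and it stood at -0.35 without Ulk1OV replicate 1. Without that library and WT replicate 3 the median over the markers was 0.23, and edgeR called 0 of them and 0.976% of all genes. Leaving out 5xFAD;Ulk1OV replicate 3, whose label App and Prnp contradict, gave a median of -1.45, with Ttr at -3.14, Kcne2 at -2.60, Otx2 at -0.90 and Sostdc1 at -1.99 ± 1.11 (edgeR adjusted p = 0.268), while edgeR called 0 markers and 8.97% of all genes.

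The interaction, the 5xFAD effect with Ulk1OV minus that without it, had a median of 1.21 over the markers. edgeR called 0 of them, against 12.8% of all genes, 0 had an unadjusted p under 0.05 (29.4% of all genes), and DESeq2 called 0 of 6, against 9.01% of all genes. Leaving out one of the high libraries turned or enlarged it: the median was -1.78, with 0 of 10 markers above 0, without WT replicate 3, and 2.29 without Ulk1OV replicate 1. The median was 0.00 without the high pair, where edgeR called 0 markers and 8.07% of all genes, and 1.01 without 5xFAD;Ulk1OV replicate 3, where edgeR called 0 markers and 14.4% of all genes. Over the 12 libraries Ttr stood at 1.63 ± 2.53 (SE), Kcne2 at 2.01 ± 2.46, Otx2 at 1.28 ± 1.31 and Sostdc1 at -0.34 ± 1.29. These 5 contrasts share groups and are not independent of each other.

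The spread of the markers between replicates was large for this dataset. Over all genes the biological coefficient of variation was 0.157, while the markers had 0.496 (Calml4) to 1.31 (Ttr). Genes of similar abundance to the markers had a fitted value of 0.123 to 0.263. None of the genotype differences in the 10 markers passed the adjusted threshold against this spread.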

How the data were processed

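Total RNA of the hippocampus went into 12 libraries (NEBNext Ultra RNA kit, per the labels' protocols). The authors deposited raw read counts per gene. Per the submitters' processing notes, the tools were featureCounts, HISAT2, SAMtools, Trim Galore, FastQC and DESeq2, on mm10, with no version. No source used here gives their settings, the annotation or the use of strand. The table lists 54427 genes, 22784 of them at 0 everywhere. Molecular identifiers are not mentioned, so intervals cover counting error only.

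The 10 markers and the lists of other markers were chosen with earlier results of these data known. Levels are CPM on library totals. With edgeR 4.0.16 in R 4.3.3, its standard filter on low counts left 17227 genes, the 10 markers among them. Libraries were scaled by TMM and the quasi-likelihood test was fitted with 1 mean per group over all 12 libraries, so the groups share the spread. A gene was called at a Benjamini-Hochberg adjusted p under 0.05 over all genes. SE is the log2 fold change over the square root of F. The script was tested on simulated data. Alternatives were DESeq2 1.42.0, its size factors, no filter, a robust spread, only the 6 libraries of the 2 groups compared, a replicate block, and leaving out each library. Leaving out Ulk1OV replicate 1 and WT replicate 3 together was added after seeing the data. No exact permutation test was run on single markers, since 3 libraries a side allow no two-sided p under 0.1. No 2 replicates agreed within sampling noise (chi-square per degree of freedom of at least 6.78). Genes were named by rule: the 10 markers, up to 4 members of each other list, and the 12 genes most like the markers. Exceptions are named as such. Positions and exon lengths come from GENCODE M21, and promoter sequences from RefSeq, GRCm38.p6.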

Additional observations from a re-analysis of the deposited data

How the results depend on the processing

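Only omitting the filter on low counts moved the number of markers called: edgeR then called 9 in 5xFAD against WT, 4 in 5xFAD;Ulk1OV against 5xFAD, 1 in Ulk1OV against WT, 8 in 5xFAD;Ulk1OV against Ulk1OV and 6 in the interaction, against 1.74%, 2.85%, 6.57%, 6.63% and 8.97% of all genes in the same order. In that fit each gene's own spread gave way to the trend over genes (prior degrees of freedom Inf, against 5.48 with the filter), so the SE of Ttr in 5xFAD against WT was 0.14 in place of 2.08. DESeq2's size factors, a robust spread and the fit of only the 6 libraries compared (in 5xFAD against WT Aqp1 and Kcne2 did not pass its filter) called 0 markers, against 0% to 12.8% of all genes. Leaving out 1 library gave 0 markers called in every comparison, against 0% to 0.221% of all genes in 5xFAD against WT, 0% to 1.48% in 5xFAD;Ulk1OV against 5xFAD, 0% to 7.34% in Ulk1OV against WT, 0% to 9.23% in 5xFAD;Ulk1OV against Ulk1OV and 5.53% to 14.7% in the interaction.

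Over those leave-one-out fits, log2 fold changes in 5xFAD against WT ran from -5.37 to 0.70 for Ttr, -2.18 to 0.24 for Kl, -2.91 to 0.33 for Clic6, -4.64 to 0.59 for Aqp1, -5.15 to 0.68 for Kcne2, -2.33 to 0.51 for Prlr, -2.18 to 0.43 for Sostdc1 and -1.05 to 0.18 for Calml4, with each highest value from the fit without WT replicate 3. Sostdc1 in 5xFAD;Ulk1OV against 5xFAD ran from -0.29 to 0.33. In Ulk1OV against WT the ranges were -4.44 to 4.96 for Ttr, -4.60 to 4.57 for Kcne2, -0.94 to 1.72 for Otx2 and -1.38 to 2.39 for Sostdc1, between the fits without Ulk1OV replicate 1 and without WT replicate 3. In 5xFAD;Ulk1OV against Ulk1OV they were -3.94 to 0.75 for Ttr, -3.15 to 1.36 for Kcne2 and -0.99 to 0.15 for Otx2. The interaction ranged from -3.86 to 5.54 for Ttr, -3.25 to 5.93 for Kcne2, -0.62 to 2.05 for Otx2 and -2.45 to 1.33 for Sostdc1.

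Without Ulk1OV replicate 1 and WT replicate 3 together, 5xFAD against WT gave 0.70 for Ttr, 0.24 for Kl, 0.33 for Clic6, 0.59 for Aqp1, 0.68 for Kcne2, 0.51 for Prlr, 0.44 for Sostdc1 and 0.18 for Calml4. Ulk1OV against WT gave 1.05 for Ttr, 0.65 for Kcne2 and 0.96 for Otx2, and 5xFAD;Ulk1OV against Ulk1OV gave 0.75 for Ttr, 1.35 for Kcne2 and 0.15 for Otx2.

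Replicate numbers did not pair the libraries: deviations from the group means correlated at -0.17 to 0.20 over 18 same-numbered pairs, 4 of them above 0.1. With the replicate block 0 markers were called, against 0% to 13.1% of all genes over the 5 comparisons, and in Ulk1OV against WT Ttr stood at 2.34, Kcne2 at 0.16 and Otx2 at 0.54, and Ttr in the interaction at -0.90. The block puts Ulk1OV replicate 1 and WT replicate 3 under different numbers. Why the values moved under the block was not tested. Outside the high pair Kcne2 and Aqp1 rest on under 30 counts a library, which limits their fold changes.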

Other observations

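Other lists held calls in comparisons where none of the 10 markers was called. Of 16 meningeal and stromal fibroblast genes, edgeR called 8 as lower in Ulk1OV than in WT (3.04% of all genes were), 7 as higher in 5xFAD;Ulk1OV than in Ulk1OV (3.67%) and 10 upward in the interaction (6.8%), with 0 in the opposite direction. It called 0 in 5xFAD against WT and in 5xFAD;Ulk1OV against 5xFAD, against 0% and 0.0464% of all genes. In each of these 10 fibroblast genes had an unadjusted p under 0.05, against 12.4% and 17.4% of all genes. DESeq2 called 1 fibroblast gene in each, against 0.44% and 2.28% of all genes. Summed, the 16 fibroblast genes had 230, 529 and 575 CPM in 5xFAD;Ulk1OV, 166, 308 and 310 CPM in 5xFAD, 191, 198 and 199 CPM in Ulk1OV and 338, 403 and 562 CPM in WT, each from low to high.

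Without Ulk1OV replicate 1 and WT replicate 3 together, the fibroblast counts were 1 lower in Ulk1OV than in WT (0.194% of all genes), 1 higher in 5xFAD;Ulk1OV than in Ulk1OV (0.56%) and 11 upward in the interaction (4.74%). Leaving out Ulk1OV replicate 1 alone gave 4, 4 and 11 in the same order of comparisons, against 1.37%, 1.17% and 5.08% of all genes. Leaving out WT replicate 3 alone gave 7, 7 and 11, against 1.8%, 3.23% and 6.1%. Without 5xFAD;Ulk1OV replicate 3, whose label App and Prnp contradict, the counts were 9, 10 and 14, against 4.17%, 5.38% and 8.27%.

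Of 12 endothelial genes 4 were lower in Ulk1OV than in WT (Esam, Itm2a, Tek and Tie1, named after their values were seen). In 5xFAD;Ulk1OV 1 was higher than in Ulk1OV (Itm2a), and 7 were called upward in the interaction. Of all genes 3.04%, 3.67% and 6.8% were called in these directions, in the same order. The count lower in Ulk1OV was 1 without Ulk1OV replicate 1, 2 without WT replicate 3, 0 without both and 4 without 5xFAD;Ulk1OV replicate 3. The shares of all genes lower in Ulk1OV were 1.37%, 1.8%, 0.194% and 4.17% in these fits. In the same fits the interaction had 6, 7, 5 and 7 endothelial calls, all upward, against 5.08%, 6.1%, 4.74% and 8.27% of all genes. The counts higher in 5xFAD;Ulk1OV than in Ulk1OV were 0, 1, 0 and 3, against 1.17%, 3.23%, 0.56% and 5.38% of all genes. Of 5 blood genes Hbb-bt, a beta globin gene, was the 1 called: its log2 fold change was -2.03 ± 0.46 (SE; edgeR adjusted p = 0.0315) in Ulk1OV against WT, 2.30 ± 0.46 (adjusted p = 0.0194) in 5xFAD;Ulk1OV against Ulk1OV and 3.77 ± 0.64 (adjusted p = 0.00615) in the interaction. The shares of all genes called in these directions were 3.04%, 3.67% and 6.8%. Without Ulk1OV replicate 1 a blood gene was called in the interaction (5.08% of all genes upward) and in no other comparison. The same held without the high pair (4.74% upward). Without WT replicate 3, 1 blood gene was called in each of the comparisons given for Hbb-bt, against 1.8%, 3.23% and 6.1% of all genes. Without 5xFAD;Ulk1OV replicate 3, 1 blood gene was called in each of the comparisons given for Hbb-bt. The shares of all genes in those directions were then 4.17%, 5.38% and 8.27%.

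On the further choroid plexus list Igf2 rose in 5xFAD;Ulk1OV against Ulk1OV (log2 fold change 2.23 ± 0.57, edgeR adjusted p = 0.0386). It was the 1 of 35 genes called as higher, against 3.67% of all genes. Without 5xFAD;Ulk1OV replicate 3 it had 2.68 ± 0.46 (edgeR adjusted p = 0.00884), and 2 genes of the list were called as higher, against 5.38% of all genes. Igf2, Slc13a4 and Col8a2 were called in the interaction, all upward, against 6.8% of all genes. They were called upward without that library too, against 8.27%. Without the high pair 4 of 34 genes were called upward in the interaction and 1 downward, against 4.74% and 3.33% of all genes. The 17 ependymal genes tested had 0 called by edgeR in every comparison over the 12 libraries, against 0% to 12.8% of all genes. By comparison 1 to 6 had an unadjusted p under 0.05 (12.4% to 29.4% of all genes), and DESeq2 called 0 to 2 of 18 (0.44% to 9.01%). Without 5xFAD;Ulk1OV replicate 3 edgeR called 1 as higher in Ulk1OV than in WT, against 2.55% of all genes. In 5xFAD;Ulk1OV against 5xFAD 17 genes lay above 0, and 11 without that library.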
